A study of Homo sapiens with 6 samples.

Results

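Named antisense long non-coding RNAs (lncRNAs) are genes transcribed from the strand opposite a known gene and called after it, so that HAND2-AS1 is the antisense RNA of HAND2. The lncRNAs described here were chosen by their symbol, which ends in -AS and 1 digit, and by their measured reads, at least 100 summed over 6 libraries. Of 841 lncRNA rows with such a symbol, among 6792 lncRNA rows and 28862 gene rows in all, 274 met that limit once OIP5-AS1 had been left out. The libraries come from SHSY5Y cells, a human neuroblastoma line of sympathetic neuron character. One group of 3 is labelled as overexpressing SMN1 from a plasmid, and the other group of 3 received a control plasmid. The dose of plasmid, the time of harvest, any clone selection and whether the 3 libraries of a group are separate cultures are not stated in the labels. The p-values below therefore measure how these libraries vary, and that variation may be technical. The RNA was made into libraries with a kit that keeps strand, but the strand setting used in counting is not given, so reads of an antisense RNA and of its sense gene cannot be told apart with certainty where their exons overlap.

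The reads of the gene named in the label went against it. SMN1, whose product assembles small nuclear ribonucleoproteins, stood at 14.8, 16.6 and 16.6 CPM in the SMN1-labelled libraries and 20.04, 20.4 and 19.6 CPM in the control libraries (edgeR adjusted p = 9.40e-05, log2 fold change -0.32, SE 0.061). SMN2 was lower as well (edgeR adjusted p = 0.0031, log2 fold change -0.30, SE 0.082), with no overlap between groups. It stood at 7.63 ± 0.427 CPM in the SMN1-labelled and 9.40 ± 0.358 CPM in the control libraries. The handling of multiply mapped reads is not given, so reads of SMN1 and SMN2 may not have been kept apart. SMN1 was lower in every SMN1-labelled library, and every direction below is between libraries as labelled. CPM divide the reads of a gene by a TMM-scaled library size, and library totals ran from 30379242 to 40275498 reads. The adrenergic neuroblastoma markers summed to between 33320 and 34604 CPM in the SMN1-labelled libraries and between 25923 and 27689 CPM in the control libraries, with 5 of 10 tested markers higher and 5 lower. Leukocyte and endothelial markers each summed to at most 0.328 CPM in every library. Epithelial markers summed to 11.3 to 12.4 CPM in the SMN1-labelled libraries and 26.9 to 28.3 CPM in the control libraries (3 of 4 tested lower), and glial markers to 1.97 to 2.12 CPM in the SMN1-labelled libraries and 3.40 to 4.82 CPM in the control libraries (both tested markers lower). Mesenchymal markers summed to 618 to 688 CPM in the SMN1-labelled libraries and 817 to 859 CPM in the control libraries, with 1 of 8 tested higher and 5 lower. For scale, 28.0% of all genes tested were higher and 28.2% lower at an edgeR adjusted p of at most 0.05. The part of these marker differences in the results below was not tested, and in bulk RNA fewer cells that make a transcript and less of it per cell cannot be told apart.

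Antisense transcription can act on the gene across from it in several ways. The act of transcription can open or block a shared promoter, the RNA can pair with the sense transcript and change its splicing, stability or translation, or it can bring chromatin regulators to the locus. Many antisense RNAs start divergently from the promoter of their sense gene, are kept in the nucleus and are degraded soon after they are made by the nuclear exosome. Others work away from their locus or have no known role, and a shared promoter alone does not show that one transcript acts on the other.

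The promoters of 5 chosen pairs are shown, in which the antisense RNA and its sense gene start from the same stretch of DNA. The choice took 4 pairs called in opposite directions between the groups, so that number is no finding. Of all 70 pairs whose promoter windows overlap, 8 were called in opposite directions and 8 in the same direction. In the 4 opposite pairs shown TRIM52, DICER1, SCAMP1 and HAND2 are the sense genes, and GATA3 is that of the fifth pair, in which both transcripts were lower. The call of HAND2 was lost in 11 of 15 alternative analyses given below and its direction turned in 1. That of SCAMP1-AS1 was lost in 4 of 15. Each sequence is the RefSeq window (assembly GRCh38.p14) from 250 bases before to 50 bases after the start of the antisense RNA, 5′ to 3′ on the strand of the antisense RNA. Capitals mark the bases that also lie in the window of the same size around the start of the sense gene, which is read on the other strand. The TRIM52-AS1 window is chr5:181260962-181261261 on the plus strand and the DICER1-AS1 window chr14:95157438-95157737 on the plus strand. The SCAMP1-AS1 window is chr5:78360492-78360791 on the minus strand, the HAND2-AS1 window chr4:173530208-173530507 on the plus strand and the GATA3-AS1 window chr10:8053400-8053699 on the minus strand.
TRIM52-AS1: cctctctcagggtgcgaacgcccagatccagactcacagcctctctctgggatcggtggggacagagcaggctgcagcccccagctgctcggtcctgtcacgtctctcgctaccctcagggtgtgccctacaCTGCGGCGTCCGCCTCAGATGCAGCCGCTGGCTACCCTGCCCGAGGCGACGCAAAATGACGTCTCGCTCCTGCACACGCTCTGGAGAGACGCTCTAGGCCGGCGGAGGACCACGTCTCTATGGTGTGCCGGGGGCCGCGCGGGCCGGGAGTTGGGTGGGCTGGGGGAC
DICER1-AS1: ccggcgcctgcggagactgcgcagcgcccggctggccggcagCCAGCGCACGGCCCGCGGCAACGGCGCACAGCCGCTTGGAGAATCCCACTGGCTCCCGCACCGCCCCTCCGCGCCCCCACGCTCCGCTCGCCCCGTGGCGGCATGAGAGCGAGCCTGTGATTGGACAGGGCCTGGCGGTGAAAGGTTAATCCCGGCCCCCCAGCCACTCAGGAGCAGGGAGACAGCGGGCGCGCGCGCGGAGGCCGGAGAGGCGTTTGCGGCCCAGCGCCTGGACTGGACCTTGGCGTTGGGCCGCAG
SCAMP1-AS1: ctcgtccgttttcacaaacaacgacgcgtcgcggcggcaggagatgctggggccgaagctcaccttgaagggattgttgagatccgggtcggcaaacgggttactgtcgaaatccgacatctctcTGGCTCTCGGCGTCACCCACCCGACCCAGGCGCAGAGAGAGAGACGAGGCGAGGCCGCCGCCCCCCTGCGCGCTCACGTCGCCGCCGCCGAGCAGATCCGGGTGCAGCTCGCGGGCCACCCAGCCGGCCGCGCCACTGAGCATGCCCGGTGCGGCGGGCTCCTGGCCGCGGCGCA
HAND2-AS1: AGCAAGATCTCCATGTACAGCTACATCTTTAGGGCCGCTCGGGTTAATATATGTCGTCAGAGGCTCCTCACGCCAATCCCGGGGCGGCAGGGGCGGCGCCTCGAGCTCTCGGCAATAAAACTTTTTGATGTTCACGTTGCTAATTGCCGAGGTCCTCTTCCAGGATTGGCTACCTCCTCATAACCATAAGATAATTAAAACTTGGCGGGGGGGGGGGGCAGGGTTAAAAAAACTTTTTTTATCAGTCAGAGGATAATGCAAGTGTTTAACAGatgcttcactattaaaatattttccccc
GATA3-AS1: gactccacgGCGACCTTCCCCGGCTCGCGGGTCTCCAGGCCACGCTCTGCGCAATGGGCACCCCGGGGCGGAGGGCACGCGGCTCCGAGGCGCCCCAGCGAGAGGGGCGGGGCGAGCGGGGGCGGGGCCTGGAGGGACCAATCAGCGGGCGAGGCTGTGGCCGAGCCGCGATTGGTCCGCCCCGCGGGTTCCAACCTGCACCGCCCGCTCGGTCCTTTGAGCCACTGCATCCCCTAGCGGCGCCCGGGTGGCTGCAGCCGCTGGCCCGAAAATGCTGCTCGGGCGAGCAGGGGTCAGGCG
The capitals cover 168 bases for TRIM52-AS1, 258 for DICER1-AS1, 175 for SCAMP1-AS1, 272 for HAND2-AS1 and 291 for GATA3-AS1. Base composition differs among the 5, with 47.7% G and C for HAND2-AS1 against 75.7% for GATA3-AS1, and with 13 and 37 CpG dinucleotides in these windows.

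The antisense RNAs fell more often than they rose in the SMN1-labelled libraries. At an adjusted p of at most 0.05 (edgeR's quasi-likelihood test, two-sided, Benjamini-Hochberg adjusted over 15829 genes) 24 of 274 were higher, 77 were lower and 173 were not called. That is 36.9% called, against 56.2% of all genes tested and 33.2% of the 1362 other lncRNAs tested. The share called lower, 28.1%, is close to the 28.2% over all genes, whereas the share called higher is 8.76%, against 28.0% over all genes and 9.84% of the other lncRNAs. Those 2 sets also hold genes with fewer than 100 reads, so these shares are not matched in depth. The shares called higher of antisense RNAs and other lncRNAs were 0% and 4.47% at 100 to under 200 reads. They were 5.32% and 12.6% at 200 to under 500, 13.2% and 10.7% at 500 to under 1000, and 19.7% and 27.3% at 1000 or more. The median log2 fold change of the 274 was -0.14, with quartiles of -0.43 and 0.12, beside 0.00087 over all genes and -0.14 over the other lncRNAs. Most changes were modest: the median fold of a called antisense RNA was 1.48, none was called higher by 2-fold or more, and 12 were called lower by that much. The groups did not overlap for 122 of the 274 (44.5%), of which 33 were higher and 89 lower, against 60.7% over all genes and 40.7% of the other lncRNAs. No antisense RNA was lost to the filter on low counts, and 8 of the 77 called lower had groups that overlapped.

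The split depended on the treatment of gene length and base composition. Once a trend with length and GC content was removed within each library, 37 were called higher and 49 lower, and the median of the 274 moved to -0.065. The antisense RNAs have a median exonic length of 2944.5 nt, beside 4575 nt over the genes tested, and a median GC content of 49.2%, beside 48.8%. Across the 274 RNAs, which share their libraries, exonic length had a Spearman correlation of 0.28 with the log2 fold change, and GC content one of -0.27. The calls by setting also show 46 lower and 20 higher with DESeq2.

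**Figure D1:**
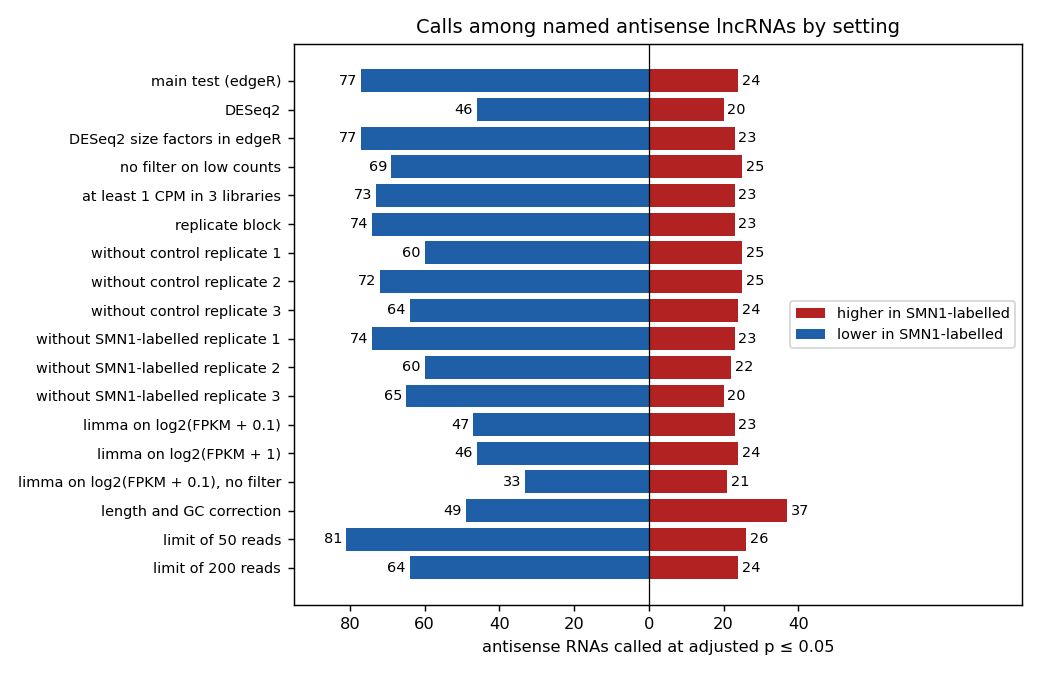
Number of named antisense lncRNAs called higher (red, right) and lower (blue, left) in the SMN1-labelled libraries under the main test and 17 other settings, on a linear axis. Lower calls outnumber higher calls in each of these settings, by 77 to 24 in the main test and by 49 to 37 after the correction for length and GC content.

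Fewer antisense RNAs were called at low depth. Of the 66 antisense RNAs with 100 to under 200 reads, none was called higher and 13 lower, 19.7% called, against 25.4% of all genes and 23.7% of the other lncRNAs of that depth. Of the 94 with 200 to under 500 reads, 5 were higher and 26 lower, 33.0% called, against 34.95% of all genes and 36.7% of the other lncRNAs. Of the 53 with 500 to under 1000 reads, 7 were higher and 18 lower, 47.2% called, against 50.4% of all genes and 43.6% of the other lncRNAs. The 61 with 1000 reads or more gave 12 higher and 20 lower, 52.5% called, against 69.1% of all genes of that depth and 68.3% of the other lncRNAs of that depth. The limit of 100 reads falls inside a continuous range: HMGN3-AS1, SUCLG2-AS1 and TMEM202-AS1 lie just inside with 101 reads each, and UBE2R2-AS1, ZSWIM8-AS1 and HDAC2-AS2 just outside with 99, 99 and 97. None of the 3 just inside was called (edgeR adjusted p from 0.438 to 0.681).

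**Figure D2:**
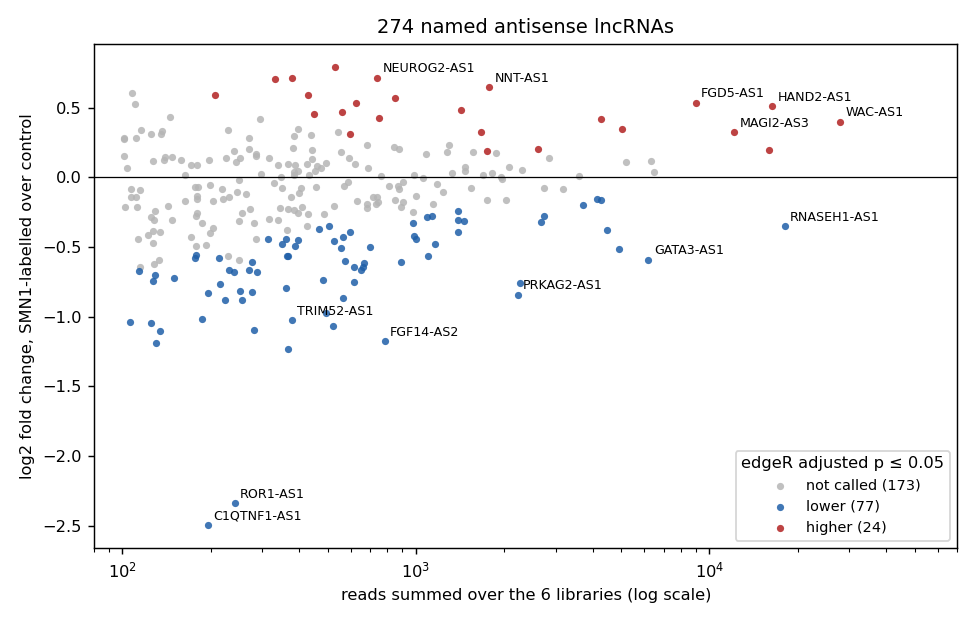
Log2 fold change (SMN1-labelled over control) of the 274 named antisense lncRNAs against their reads summed over 6 libraries on a log axis, 1 point per gene, coloured by call. Points called lower (77) spread over all depths, while the points called higher (24) start above 200 reads, and C1QTNF1-AS1 and ROR1-AS1 stand apart at -2.50 and -2.34.

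A few abundant RNAs held many of the reads. The 274 antisense RNAs held 309403 reads in all, of which the top 3 held 20.1% and the top 10 held 39.96%, with a median of 395.5 reads per gene. Of these 10 RNAs, 5 rose, 2 fell and 3 were not called. Of all genes tested with 1000 reads or more, 36.0% rose and 33.1% fell. WAC-AS1, opposite the gene of an adaptor protein that promotes ubiquitination of histone H2B, was the most abundant, at 154, 161 and 159 CPM in the SMN1-labelled libraries and 118, 121 and 121 CPM in the control libraries (edgeR adjusted p = 1.13e-09, log2 fold change 0.40, SE 0.035). All SMN1-labelled libraries were above all control libraries. WAC itself stood at 151, 143 and 135 CPM in the SMN1-labelled libraries and 92.4, 93.4 and 95.3 CPM in the control libraries, also with no overlap (edgeR adjusted p = 6.33e-12, log2 fold change 0.61, SE 0.039). RNASEH1-AS1, opposite the gene of RNase H1, which cuts RNA paired with DNA, went down, with 80.4, 82.04 and 81.6 CPM in the SMN1-labelled libraries and 104, 101 and 105 CPM in the control libraries (edgeR adjusted p = 1.64e-08, log2 fold change -0.35, SE 0.036). The 2 groups were well apart, but the call was lost after the correction for length and GC content (edgeR adjusted p = 0.133; adjusted p over all its alternatives, each with its own tool, ran from 6.06e-14 to that value). RNASEH1 stood at 52.1, 51.4 and 53.4 CPM in the SMN1-labelled libraries and 45.4, 46.7 and 51.3 CPM in the control libraries, a small rise (edgeR adjusted p = 0.0177, log2 fold change 0.13, SE 0.045) that lost its call in 3 of 15 alternatives, each of them without 1 library (adjusted p from 8.66e-06 to 0.132 over the alternatives). The 3 libraries are control 1, control 2 and SMN1-labelled 3.

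The other abundant RNAs that rose were MAGI2-AS3, FGD5-AS1, CCDC144NL-AS1 and HAND2-AS1. MAGI2-AS3, opposite a synaptic scaffold gene, stood at 66.8, 67.2 and 68.96 CPM in the SMN1-labelled libraries and 52.9, 52.8 and 56.1 CPM in the control libraries (edgeR adjusted p = 2.39e-07, log2 fold change 0.33, SE 0.040). Its groups did not overlap, whereas those of MAGI2 did (log2 fold change 0.16, edgeR adjusted p = 0.0687; called higher in 4 of 13 alternatives). FGD5-AS1 stood at 51.5, 54.8 and 51.8 CPM in the SMN1-labelled libraries and 36.5, 36.9 and 35.9 CPM in the control libraries (edgeR adjusted p = 2.31e-10, log2 fold change 0.54, SE 0.043), although FGD5, an exchange factor for CDC42 known from endothelium, had at most 0.266 CPM in any library and was not tested. CCDC144NL-AS1 stood at 80.1, 88.2 and 89.7 CPM in the SMN1-labelled libraries and 73.5, 73.4 and 77.8 CPM in the control libraries, a small rise (edgeR adjusted p = 0.000396, log2 fold change 0.20, SE 0.043) whose direction turned after the correction for length and GC content, to -0.043. PROX1-AS1, OTUD6B-AS1 and ZNF667-AS1 were not called, with overlapping groups and log2 fold changes of 0.040, 0.12 and 0.11 (edgeR adjusted p = 0.505, 0.0508 and 0.196). Their sense genes, the homeodomain factor PROX1, the deubiquitinase OTUD6B and the zinc finger gene ZNF667, were each called higher (0.42, 0.50 and 0.28, edgeR adjusted p = 1.92e-07, 7.22e-06 and 0.00464). OTUD6B-AS1 lay at the threshold and was called higher in 7 of 15 alternatives, and ZNF667-AS1 in 2 of 15. After the correction for length and GC content PROX1-AS1 and OTUD6B-AS1 were called lower, at -0.13 and -0.12 (edgeR adjusted p = 0.0198 and 0.0341), and ZNF667 lost its call (edgeR adjusted p = 0.653).

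As a share of all reads the antisense RNAs took 0.161% ± 0.00216 in the SMN1-labelled libraries and 0.152% ± 0.000641 in the control libraries (SD, n = 3 each). Every SMN1-labelled library was above every control library, with an exact two-sided permutation p of 0.1, the smallest that 3 against 3 allows. The difference of 0.00971 percentage points became -0.000144 when library sizes were scaled by TMM factors, and 0.00328 without WAC-AS1, RNASEH1-AS1 and HAND2-AS1. The summed share was thus higher in the SMN1-labelled libraries on raw totals, while lower calls outnumbered higher calls.

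Antisense RNAs opposite genes from a list of sympathetic lineage and pain genes moved in both directions. The transcription factors HAND2, GATA2, GATA3 and TBX2 belong to the network that keeps adrenergic neuroblastoma cells in their state, NEUROG2 is a proneural factor of sensory and central neurons, and DLX6 is a homeodomain factor of the forebrain and jaw. Of the 6 antisense RNAs opposite them, 2 rose, 1 fell and 3 were not called, whereas 2 of the sense genes rose and 4 fell. HAND2-AS1, whose mouse counterpart is transcribed divergently from Hand2 and is known from heart development, stood at 89.1, 97.6 and 101 CPM in the SMN1-labelled libraries and 68.9, 69.1 and 64.01 CPM in the control libraries (edgeR adjusted p = 1.24e-09, log2 fold change 0.51, SE 0.045). The groups were separate for the antisense RNA. HAND2 had 2069.9, 1921 and 1851 CPM in the SMN1-labelled libraries and 2049, 2058 and 2115 CPM in the control libraries, with overlapping groups (edgeR adjusted p = 0.0394, log2 fold change -0.091, SE 0.037). That fall of HAND2 lost its call in 11 of 15 alternatives, and its direction turned to 0.12 after the correction for length and GC content, where it was called higher (edgeR adjusted p = 0.0043). Over the alternatives, each with its own tool, the adjusted p of HAND2 ran from 0.0017 to 0.976. The log2 ratio of HAND2-AS1 to HAND2 reads was higher in all 3 SMN1-labelled libraries, by 0.60.

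NEUROG2-AS1 stood at 4.93, 4.64 and 4.02 CPM in the SMN1-labelled libraries and 3.06, 2.39 and 2.83 CPM in the control libraries (edgeR adjusted p = 5.00e-05, log2 fold change 0.72, SE 0.13). NEUROG2 rose far more, with 219.6, 203 and 203 CPM in the SMN1-labelled libraries and 54.8, 59.3 and 56.3 CPM in the control libraries (edgeR adjusted p = 1.98e-20, log2 fold change 1.88, SE 0.042). Both transcripts of this pair rose, and the antisense share was lower: NEUROG2-AS1 was at 5.24% of the FPKM of NEUROG2 in the SMN1-labelled libraries and 11.7% in the control libraries. FPKM are the deposited values scaled by gene length and depth, and levels of different genes are compared here only on that scale.

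GATA3-AS1 was the member of this group that fell. It stood at 25.9, 25.05 and 25.8 CPM in the SMN1-labelled libraries and 38.4, 39.2 and 37.7 CPM in the control libraries (edgeR adjusted p = 1.33e-10, log2 fold change -0.59, SE 0.046), with a wide gap between the groups. GATA3 stood at 236, 227 and 217 CPM in the SMN1-labelled libraries and 245, 249 and 247 CPM in the control libraries (edgeR adjusted p = 0.0059, log2 fold change -0.12, SE 0.036), a much smaller difference that lost its call without the third SMN1-labelled library and on FPKM values and turned to 0.042 after the correction for length and GC content. The pair shares nearly all of its promoter window in the RefSeq sequence printed above, although the older GENCODE v29 annotation places GATA3-AS1 inside the GATA3 locus. GATA2-AS1, TBX2-AS1 and DLX6-AS1 were not called (log2 fold changes -0.077, 0.00060 and -0.12, edgeR adjusted p = 0.329, 0.996 and 0.641), and each of these values turned sign under at least 1 alternative. After the correction for length and GC content GATA2-AS1 and TBX2-AS1 were called higher, by 0.20 and 0.42 (edgeR adjusted p = 0.0103 and 8.26e-05). Their sense genes were called, GATA2 lower (-0.18), TBX2 higher (0.21) and DLX6 lower (-0.26), with edgeR adjusted p from 8.11e-05 to 0.000915. GATA2 lost its call after that correction (edgeR adjusted p = 0.937), and both GATA2 and DLX6 lost it in limma on unfiltered FPKM values. Over the wider list of sympathetic lineage and pain genes 23 of 45 tested were higher and 16 lower, with a median log2 fold change of 0.15. Of all genes tested with 1000 reads or more, 36.0% were higher and 33.1% lower, and of all genes tested 28.0% and 28.2%.

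**Figure D3:**
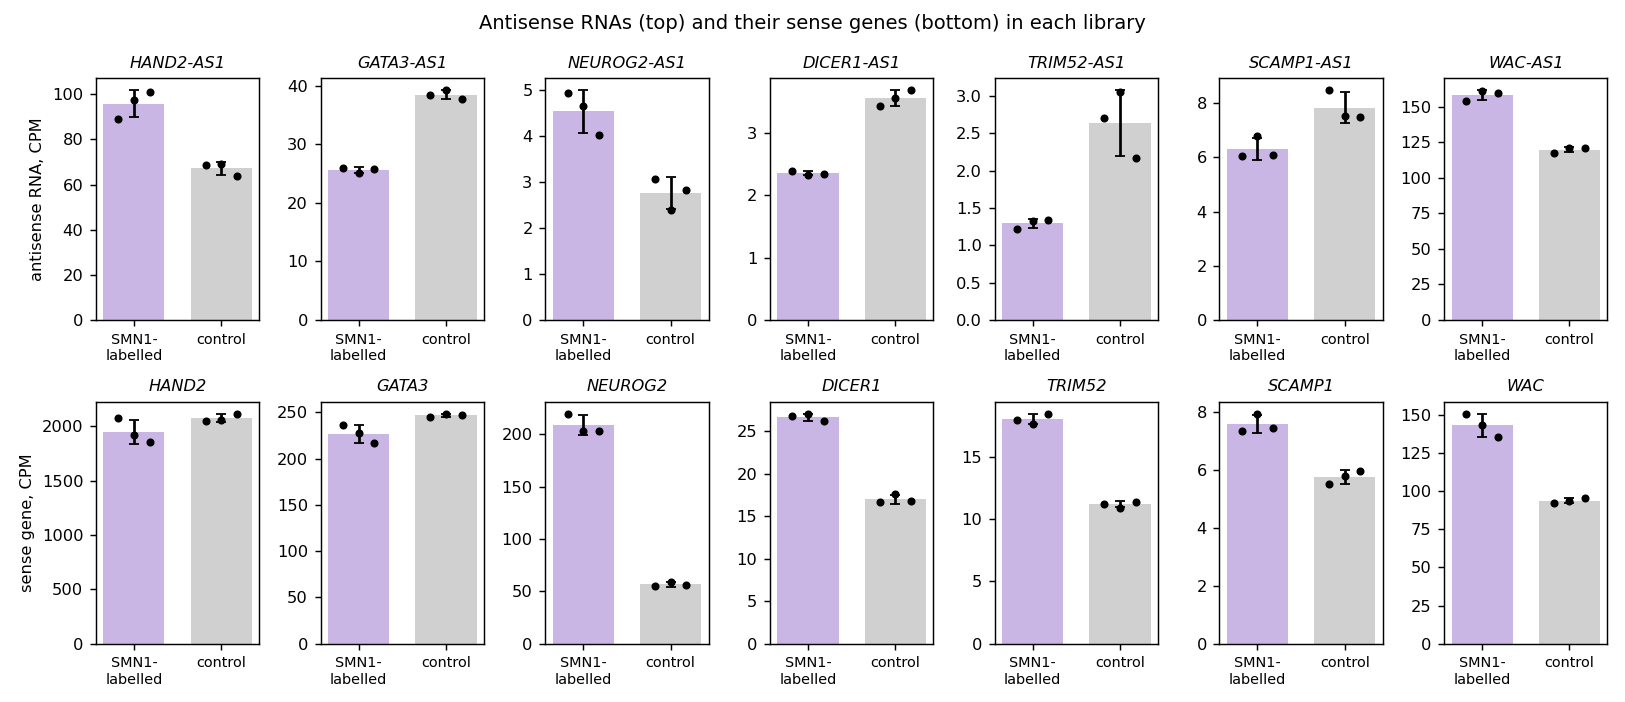
CPM of 7 antisense RNAs (top) and of their sense genes (bottom) in each library, SMN1-labelled left and control right. Bars are means, error bars SD over n = 3 libraries and points single libraries; GATA3-AS1, DICER1-AS1, TRIM52-AS1 and SCAMP1-AS1 are lower in the SMN1-labelled libraries while DICER1, TRIM52 and SCAMP1 are higher there.

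The other rises described here from among the 12 largest were of 1.40- to 1.64-fold. PPP1R26-AS1, opposite the gene of a regulator of protein phosphatase 1, stood at 2.30, 2.69 and 1.89 CPM in the SMN1-labelled libraries and 1.66, 1.08 and 1.48 CPM in the control libraries (edgeR adjusted p = 0.0024, log2 fold change 0.72, SE 0.19). Its libraries did not overlap, and PPP1R26 rose slightly as well (log2 fold change 0.18, edgeR adjusted p = 6.54e-05). NNT-AS1 stood at 11.6, 10.6 and 10.2 CPM in the SMN1-labelled libraries and 7.09, 6.85 and 6.72 CPM in the control libraries (edgeR adjusted p = 3.99e-07, log2 fold change 0.65, SE 0.082). NNT, the mitochondrial transhydrogenase that makes NADPH, was called higher by a log2 fold change of 0.20 (edgeR adjusted p = 0.00316), which turned to -0.056 after the correction for length and GC content. COX10-AS1, which starts 1 nt from COX10, a gene for heme A synthesis, stood at 5.43, 5.10 and 4.62 CPM in the SMN1-labelled libraries and 3.03, 3.96 and 3.21 CPM in the control libraries (edgeR adjusted p = 0.000327, log2 fold change 0.57, SE 0.12). COX10 itself stood at 11.4 ± 0.453 CPM in the SMN1-labelled and 11.5 ± 1.01 CPM in the control libraries and was not called (log2 fold change -0.0061, edgeR adjusted p = 0.953). ST20-AS1, ZNF571-AS1, FBXL19-AS1 and MCM3AP-AS1 rose by 0.71, 0.59, 0.53 and 0.49 on the log2 scale (edgeR adjusted p from 0.000134 to 0.00387). FBXL19, a CpG-island binding F-box gene, was called higher too (0.20, edgeR adjusted p = 0.00317), MCM3AP, which encodes an mRNA export factor, and ZNF571 were not called (0.080 and 0.36, edgeR adjusted p = 0.0705 and 0.32), though MCM3AP was called higher in 6 of 15 alternatives, and ST20 was too low to test. RAP2C-AS1 rose by 0.59 (edgeR adjusted p = 0.0302), a call lost in 7 of the 13 alternatives that tested it, with adjusted p up to 0.132 (lowest 0.0137), while its sense gene, for a small GTPase, rose by 0.69 (edgeR adjusted p = 1.18e-06).

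The 2 largest falls were of over 5-fold. C1QTNF1-AS1, at chr17:79019209-79027655 on the minus strand (GRCh38, GENCODE v29), stood at 0.269, 0.264 and 0.426 CPM in the SMN1-labelled libraries and 1.60, 1.70 and 2.10 CPM in the control libraries (edgeR adjusted p = 1.93e-08, log2 fold change -2.50, SE 0.26). Every SMN1-labelled library was below every control library by a wide margin, on 195 reads in all. C1QTNF1, which encodes a secreted protein of the C1q and TNF family, stood at 0.985, 1.37 and 0.882 CPM in the SMN1-labelled libraries and 3.16, 4.23 and 1.96 CPM in the control libraries and fell by 1.51 on the log2 scale (edgeR adjusted p = 4.98e-06). ROR1-AS1, at chr1:64094442-64171297 on the minus strand inside the ROR1 gene, stood at 0.269, 0.313 and 0.730 CPM in the SMN1-labelled libraries and 2.33, 1.83 and 2.38 CPM in the control libraries (edgeR adjusted p = 6.75e-08, log2 fold change -2.34, SE 0.26). ROR1, a receptor for Wnt5a, stood at 3.34, 4.01 and 3.47 CPM in the SMN1-labelled libraries and 4.59, 4.19 and 4.03 CPM in the control libraries, and was not called (log2 fold change -0.24, edgeR adjusted p = 0.0956). It was called lower without the second SMN1-labelled library (-0.33) and after the correction for length and GC content (-0.42). No exon of ROR1-AS1 lies over an exon of ROR1, and its FPKM was 17.9% of that of ROR1 in the SMN1-labelled libraries and 74.1% in the control libraries.

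Another 9 RNAs fell by 2-fold or more with no overlap between groups, among them URB1-AS1, CRTC3-AS1, FGF14-AS2 and IER3-AS1. URB1-AS1 starts 104 nt upstream of the ribosome biogenesis gene URB1 on the other strand and stood at 1.02, 1.08 and 1.37 CPM in the SMN1-labelled libraries and 2.63, 3.05 and 2.41 CPM in the control libraries (edgeR adjusted p = 2.37e-06, log2 fold change -1.23, SE 0.18). URB1 stood at 53.7 ± 1.10 CPM in the SMN1-labelled and 53.4 ± 1.14 CPM in the control libraries and was not called (edgeR adjusted p = 0.9). FGF14-AS2, inside the gene of an intracellular growth factor homolog that binds sodium channels, stood at 1.85, 2.48 and 3.25 CPM in the SMN1-labelled libraries and 5.83, 5.96 and 5.31 CPM in the control libraries (edgeR adjusted p = 1.94e-07, log2 fold change -1.18, SE 0.14), while FGF14 was not called (log2 fold change 0.097, edgeR adjusted p = 0.32). CRTC3-AS1 fell by 1.19 (edgeR adjusted p = 0.00425), and CRTC3, a coactivator of CREB, was not called (0.14, edgeR adjusted p = 0.0538), although it was called higher in 7 of 15 alternatives. The fall of CRTC3-AS1 was -0.90 without the first SMN1-labelled library, -0.99 without the third and -1.96 without the second, and its call was lost in limma on unfiltered FPKM values (adjusted p = 0.0739). IER3-AS1 fell by 1.11 (edgeR adjusted p = 0.0012). Of its exonic sequence 68.1% lies over exons of IER3, an early response gene that had at most 0.262 CPM in any library and was not tested. BCAN-AS1 fell by 1.04 (edgeR adjusted p = 0.00234) together with BCAN, which encodes the proteoglycan brevican (-0.53, edgeR adjusted p = 0.00116). The twelfth RNA lower by 2-fold or more, B3GALT5-AS1, had overlapping groups and is named after its value was seen.

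Most antisense RNAs were scarce. The median of the 274 was 0.485 FPKM in the SMN1-labelled libraries and 0.538 FPKM in the control libraries, and 184 were below 1 FPKM in both. WAC-AS1 had the highest level, 45.3 FPKM in the SMN1-labelled and 32.3 FPKM in the control libraries. A sense gene was found in the table for 265 of the 274, and they name 263 genes, 261 of them protein coding, since TSPEAR and PTOV1 each have 2 antisense RNAs. The median level of an antisense RNA was 21.6% of that of its sense gene in the SMN1-labelled libraries (n = 259 pairs) and 25.7% in the control libraries (n = 260). In 68 pairs of the SMN1-labelled libraries and 79 of the control libraries the antisense RNA was above its sense gene, WAC-AS1 among them, at 417% of the FPKM of WAC in the SMN1-labelled libraries and 483% in the control libraries.

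The sense genes as a set were called about evenly in each direction. Of 237 tested, 83 rose, 72 fell and 82 were not called, 65.4% called against 56.2% over all genes, with a median log2 fold change of 0.037. Of the protein-coding genes tested 60.7% were called, 31.5% higher and 29.2% lower. In the 238 pairs with both transcripts tested, 32 were called in the same direction, 21 in opposite directions, 35 only for the antisense RNA, 103 only for the sense gene and 47 for neither. The 32 comprised 8 pairs with both higher and 24 with both lower. The 21 comprised 17 pairs with the antisense RNA lower and the sense gene higher, and 4 the other way round. Of the 69 lower antisense RNAs with a tested sense gene, 17 faced a higher and 24 a lower one. Of the 19 higher ones, 8 faced a higher and 4 a lower sense gene. Over all genes 28.0% were called higher and 28.2% lower. Opposite calls were thus no more frequent than the calls among all 237 sense genes (83 higher, 72 lower) would give. The count of opposite pairs was 13 without the first control library or without the third SMN1-labelled library. Across the 238 pairs, which share libraries and in part exons, the 2 log2 fold changes had a Spearman correlation of 0.21 and a Pearson correlation of 0.27.

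The balance within pairs leaned toward the sense gene. The log2 ratio of antisense to sense reads was higher in all SMN1-labelled than in all control libraries for 31 pairs, lower for 82 and overlapping for 125, with a median change of -0.19. For scale, groups did not overlap for 60.7% of all genes tested. The median log2 fold change was -0.14 over the other lncRNAs and 0.017 over protein-coding genes. On these medians a lower ratio of lncRNA to coding gene is not particular to these pairs, and no ratios of unrelated genes were computed. A single pair cannot go below an exact permutation p of 0.1 with 3 libraries against 3, so these are descriptions.

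**Figure D4:**
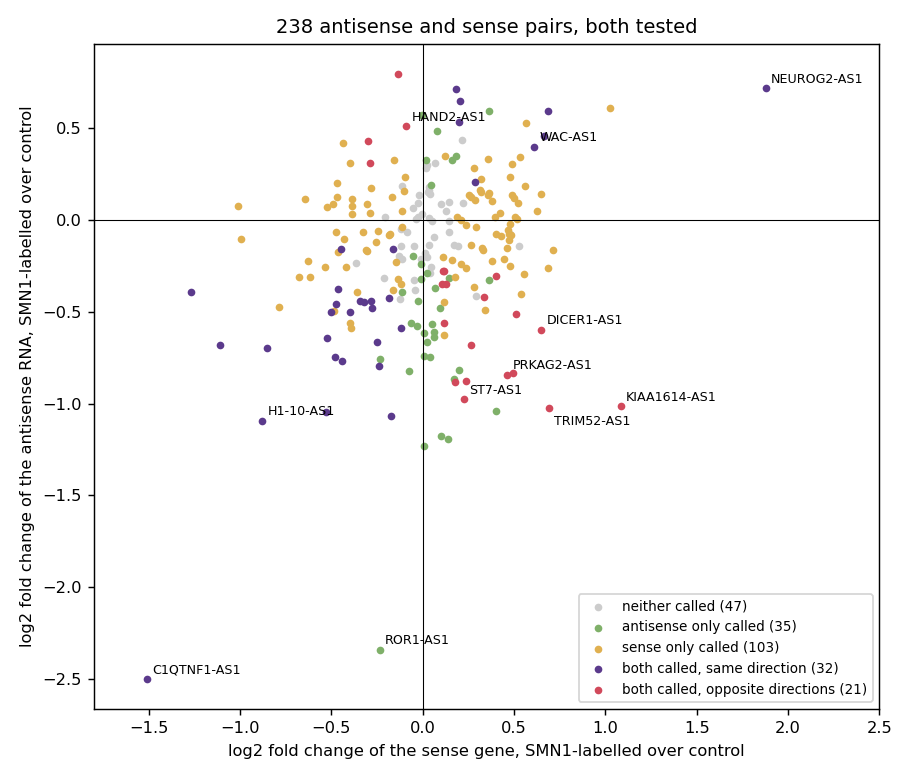
Log2 fold change (SMN1-labelled over control) of the antisense RNA (vertical axis) against that of its sense gene (horizontal axis) for the 238 pairs with both tested, 1 point per pair, coloured by which of the 2 was called. The 17 opposite pairs with a lower antisense RNA lie in the lower right, where TRIM52-AS1 and KIAA1614-AS1 are near -1, and NEUROG2-AS1 lies alone at the upper right.

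Of the opposite pairs, TRIM52, KIAA1614 and DICER1 had the largest rises of the sense gene. TRIM52-AS1 stood at 1.22, 1.32 and 1.34 CPM in the SMN1-labelled libraries and 2.70, 3.05 and 2.17 CPM in the control libraries (edgeR adjusted p = 2.06e-05, log2 fold change -1.03, SE 0.17). TRIM52, a gene of the tripartite motif family of ubiquitin ligases, stood at 17.98, 17.6 and 18.5 CPM in the SMN1-labelled libraries and 11.3, 10.9 and 11.4 CPM in the control libraries (edgeR adjusted p = 2.56e-09, log2 fold change 0.69, SE 0.063). Neither transcript had overlapping groups, the genes do not overlap in the annotation, and the antisense RNA was at 28.2% of the FPKM of TRIM52 in the SMN1-labelled libraries and 92.5% in the control libraries. DICER1-AS1 stood at 2.39, 2.33 and 2.34 CPM in the SMN1-labelled libraries and 3.43, 3.57 and 3.69 CPM in the control libraries (edgeR adjusted p = 0.000362, log2 fold change -0.60, SE 0.13). DICER1, the endonuclease that cuts microRNA precursors, stood at 26.8, 27.02 and 26.2 CPM in the SMN1-labelled libraries and 16.6, 17.6 and 16.8 CPM in the control libraries (edgeR adjusted p = 4.06e-10, log2 fold change 0.65, SE 0.054). The exons of this pair overlap by 2.15% of the antisense exonic length, and no library of one group reached the range of the other. KIAA1614-AS1 stood at 0.567, 0.865 and 0.456 CPM in the SMN1-labelled libraries and 1.20, 1.51 and 1.21 CPM in the control libraries (edgeR adjusted p = 0.00139, log2 fold change -1.01, SE 0.25), and KIAA1614 at 22.7, 24.8 and 22.8 CPM in the SMN1-labelled libraries and 10.5, 12.1 and 10.6 CPM in the control libraries (edgeR adjusted p = 3.09e-12, log2 fold change 1.08, SE 0.067). Of its exonic sequence 84.7% lies over exons of KIAA1614, so the assignment of reads between the 2 rests on strand.

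EPB41L4A-AS1 and PRKAG2-AS1 were the most abundant of the opposite pairs described here apart from RNASEH1-AS1 and HAND2-AS1. EPB41L4A-AS1 stood at 20.1, 22.00 and 20.2 CPM in the SMN1-labelled libraries and 29.9, 29.97 and 29.3 CPM in the control libraries (edgeR adjusted p = 1.26e-08, log2 fold change -0.51, SE 0.052). EPB41L4A, a band 4.1 family gene, stood at 8.60, 9.09 and 8.76 CPM in the SMN1-labelled libraries and 6.09, 6.55 and 5.93 CPM in the control libraries (edgeR adjusted p = 2.05e-05, log2 fold change 0.51, SE 0.086), and 49.6% of the antisense exonic sequence lies over its exons. PRKAG2-AS1 stood at 7.79, 8.25 and 8.76 CPM in the SMN1-labelled libraries and 14.3, 14.7 and 15.4 CPM in the control libraries (edgeR adjusted p = 1.01e-09, log2 fold change -0.84, SE 0.073). PRKAG2, the gamma subunit of the energy sensor AMPK, stood at 12.96, 9.93 and 10.9 CPM in the SMN1-labelled libraries and 8.46, 7.93 and 8.07 CPM in the control libraries (edgeR adjusted p = 0.000143, log2 fold change 0.46, SE 0.091). In both pairs all SMN1-labelled libraries were below the control libraries for the antisense RNA and above them for the sense gene.

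In the other opposite pairs the changes were smaller or less firm. ST7-AS1 fell by 0.98 (edgeR adjusted p = 6.53e-06) and ST7 rose by 0.22 (edgeR adjusted p = 0.00139), a rise not called after the correction for length and GC content. KCTD21-AS1 fell by 0.42 (edgeR adjusted p = 0.000939), and KCTD21 rose by 0.34 (edgeR adjusted p = 0.00946), a call lost without the first control library. SCAMP1-AS1, which starts 76 nt from a gene for a protein of secretory vesicles, stood at 6.06, 6.78 and 6.08 CPM in the SMN1-labelled libraries and 8.49, 7.53 and 7.48 CPM in the control libraries (edgeR adjusted p = 0.00625, log2 fold change -0.31, SE 0.091). SCAMP1 stood at 7.35, 7.93 and 7.45 CPM in the SMN1-labelled libraries and 5.49, 5.80 and 5.96 CPM in the control libraries (edgeR adjusted p = 0.00056, log2 fold change 0.40, SE 0.090). The groups were separate for both, but the fall of SCAMP1-AS1 lost its call on FPKM values and after the correction for length and GC content (adjusted p from 0.00476 to 0.375 over the alternatives). RBM26-AS1 fell by 0.68 with overlapping groups (edgeR adjusted p = 0.00906), a call lost without the first control library, while RBM26, an RNA-binding protein gene, rose by 0.26 (edgeR adjusted p = 9.03e-06). The call of RBM26 was lost after the correction for length and GC content (edgeR adjusted p = 0.817), and that of RBM26-AS1 also in limma on unfiltered FPKM values. KMT2E-AS1 fell by 0.88 (edgeR adjusted p = 0.00125) and KMT2E, of the lysine methyltransferase family, rose by 0.18 (edgeR adjusted p = 0.000284), but after the correction for length and GC content the first was not called and the second turned to -0.038.

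Pairs called in the same direction were mostly lower. H1-10-AS1 stood at 1.16, 0.986 and 0.639 CPM in the SMN1-labelled libraries and 2.16, 1.97 and 1.86 CPM in the control libraries (edgeR adjusted p = 7.77e-05, log2 fold change -1.09, SE 0.20), and H1-10, a replication-independent linker histone gene, at 225, 218 and 201 CPM in the SMN1-labelled libraries and 391, 392 and 401 CPM in the control libraries (edgeR adjusted p = 9.82e-15, log2 fold change -0.88, SE 0.038). The groups were apart for both. MRPL20-AS1 stood at 20.03 ± 0.537 CPM in the SMN1-labelled and 25.99 ± 0.930 CPM in the control libraries (edgeR adjusted p = 2.04e-06, log2 fold change -0.37, SE 0.053), and MRPL20, of the mitochondrial ribosome, fell by 0.46 (edgeR adjusted p = 6.58e-10). PTOV1-AS2 and ATP6V0E2-AS1 fell by 0.64 and 0.50 (edgeR adjusted p = 0.000149 and 0.00102), with PTOV1 and the vacuolar ATPase subunit gene ATP6V0E2 lower by 0.52 and 0.40 (edgeR adjusted p = 1.04e-09 and 1.52e-06). The calls of MRPL20-AS1, PTOV1-AS2 and ATP6V0E2-AS1 were lost after the correction for length and GC content. RARA-AS1, inside the gene of the retinoic acid receptor alpha, stood at 2.12, 1.37 and 1.89 CPM in the SMN1-labelled libraries and 3.63, 3.24 and 4.27 CPM in the control libraries (edgeR adjusted p = 4.97e-06, log2 fold change -1.07, SE 0.16). RARA fell slightly (edgeR adjusted p = 0.00192, log2 fold change -0.17, SE 0.044), a call lost on FPKM values and a direction that turned to 0.016 after that correction, and 31.1% of the antisense exonic sequence lies over RARA exons.

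Position relative to the sense gene was read from the GENCODE v29 annotation, in which all 265 pairs lie on opposite strands. Of these, 150 (56.6%) are head to head, with starts facing away from each other or overlapping, 53 are tail to tail, 39 lie inside the sense gene and 23 span it. In 105 pairs the 2 starts lie within 1000 nt. Of all 274 antisense RNAs 8.76% rose and 28.1% fell, beside 9.84% and 23.3% of the other lncRNAs and 28.0% and 28.2% of all genes tested. The other lncRNAs and all genes are not matched in depth here. The 39 inside the sense gene included none that rose and 17 that fell (median log2 fold change -0.31). This class rests on the outer bounds of the sense gene in v29. Some of its RNAs share a RefSeq promoter window with their sense gene, GATA3-AS1 and B3GALT5-AS1 among them. The 128 head to head pairs with overlap had 14 higher and 31 lower antisense RNAs (median -0.078), the 22 without overlap 1 and 8 (median -0.21), the 52 tail to tail pairs with overlap 8 and 14 (median -0.14) and the 23 that span the sense gene 1 and 4 (median -0.081). The antisense RNAs inside the sense gene are also the shortest of the classes with more than 1 RNA, with a median of 1790 nt of exons against 3083 nt for the overlapping head to head class, and the part of length in this difference was not tested beyond the correction given above.

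**Figure D5:**
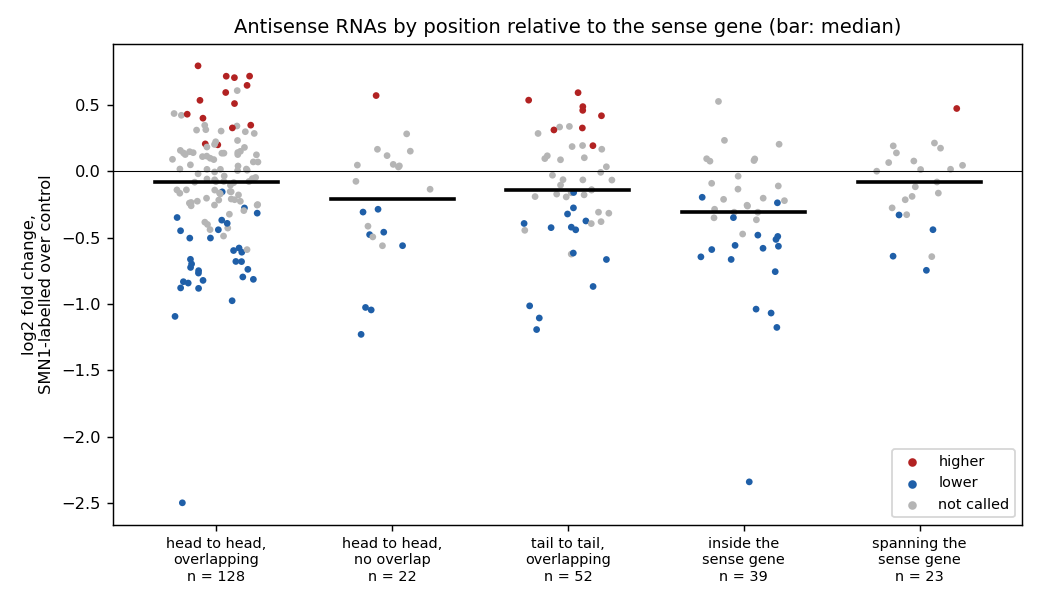
Log2 fold change (SMN1-labelled over control) of antisense RNAs by their position relative to the sense gene, 1 point per RNA, coloured by call, with the median of each class as a bar and sideways scatter for legibility only. The class inside the sense gene by GENCODE v29 bounds (n = 39) holds no RNA called higher and has the lowest median, -0.31.

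Exon overlap gives the stretch in which reads of the 2 genes could be confused. The median antisense RNA has 5.51% of its exonic sequence over exons of its sense gene, 68 have none and 15 have over 40%. Among the 68 with none, 5 were higher and 18 lower, so falls outnumbered rises there as well. The same held for the other lncRNAs (9.84% higher, 23.3% lower), whereas all genes tested were even (28.0% and 28.2%), both sets without a match in depth. Among the 15 with over 40%, none was higher and 6 were lower, and of their pairs 2 were called in opposite directions and 1 in the same direction.

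Promoter windows of 300 nt were found in the RefSeq table for 212 of the 274, with 258 windows in all. Their median GC content was 65%, with 25 CpG dinucleotides and an observed to expected CpG ratio of 0.815, beside 58.7%, 14 and 0.579 over all 35116 windows of 27305 genes. The GC box GGGCGG was present on either strand in 61.2% of the antisense windows and 45.0% of all windows, CCAAT in 32.6% and 34.6%, TATAAA in 5.81% and 11.5%, and the CRE element TGACGTCA in 3.88% and 1.85%. In 70 pairs the window of the antisense RNA overlaps that of its sense gene, by a median of 201 nt. Of these 70 antisense RNAs 6 were higher and 19 lower, with a median log2 fold change of -0.14, while 28 of the sense genes were higher and 15 lower, with a median of 0.14. Over all 274 antisense RNAs 8.76% were higher and 28.1% lower, and over all genes tested 28.0% and 28.2%. Both transcripts were called in the same direction in 8 of these pairs and in opposite directions in 8, and the Spearman correlation of the 2 log2 fold changes over the 69 pairs tested was 0.13.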

How the data were processed

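RNA of 6 SHSY5Y libraries was sequenced as paired 150 nt reads from a stranded mRNA kit, per the labels' protocols. The submitters' processing notes name GRCh38, HISAT2 and DESeq2 without versions; the counter, its strand setting, the annotation release and the handling of multiply mapped reads were not given in the sources used. The deposited read counts are whole numbers per gene, and the deposited FPKM values are scaled by length and depth.

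The test on counts was that of edgeR 4.0.16 (R 4.3.3; filterByExpr, TMM factors, a quasi-likelihood fit on group, two-sided, Benjamini-Hochberg over 15829 genes, called at an adjusted p of at most 0.05). CPM use TMM-scaled library sizes, and values are mean ± SD over 3 libraries. Library totals of 30379242 to 40275498 reads set the precision. Within groups, the counts of 2 libraries differed by more than sampling noise, with a chi-square over its degrees of freedom of 2.52 to 4.4 (59.5 to 67.7 across groups), and each counted once. On simulated counts for 15829 genes, of which 200 were changed and 15638 passed the filter, the test recovered 79.1%, 86.6% and 98.5% of genes changed 1.5-, 2- and 4-fold and called 13 of the 15629 unchanged genes.

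Coordinates, exon overlap, length and GC content came from GENCODE v29, matched by unversioned identifier (28038 of 28862 rows; 95 of the 274 antisense RNAs had the same version), and promoter windows from RefSeq GRCh38.p14. Alternatives were DESeq2 1.42.0, DESeq2 size factors, no filter, at least 1 CPM in 3 libraries, a replicate block, each library left out, limma 3.58.1 on the log2 scale of FPKM (pseudocount 0.1 with a filter at 0.5 FPKM or with none, or pseudocount 1 with that filter), a spline correction for length and GC content, and limits of 50 and 200 reads.

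The genes named are the 10 antisense RNAs with the most reads, the 12 largest rises and 12 largest falls among called ones with separate groups, up to 12 opposite and 8 same-direction pairs, those nearest the read limit and those of listed sympathetic genes; a pair of RNAs that met this rule are not reported here. The antisense RNAs and lists were chosen with earlier results of these data known.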

Additional observations from a re-analysis of the deposited data

How the results depend on the processing

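Lower calls outnumbered higher calls among the antisense RNAs under every setting run, but their number did not hold. Against 77 lower, 46 were lower with DESeq2, 47 on log2(FPKM + 0.1), 46 on log2(FPKM + 1), 33 on FPKM without a filter and 49 after the correction for length and GC content, where 37 rather than 24 were higher. The FPKM filter left 150 antisense RNAs; otherwise the cause was not tested. Leaving out each library in turn gave 20 to 25 higher and 60 to 74 lower, 72 to 80 sense genes higher and 62 to 71 lower, 24 to 30 pairs in the same direction, 13 to 21 in opposite directions, and 3965 to 4335 higher and 4049 to 4346 lower over all genes. Against 32 pairs in the same direction, 16 were found with DESeq2, 19 on log2(FPKM + 0.1), 20 on log2(FPKM + 1) and 18 on FPKM without a filter, which also left 11 opposite pairs, 43 sense genes lower and 2878 genes lower in all. The log2 fold change of SMN1 ran from -0.35 to -0.27 without single libraries. Of the 101 called antisense RNAs, 30 were called under each of 15 settings. The difference in summed share was -0.000144 on TMM-scaled sizes, 0.00328 without the top 3, and 0.00886 to 0.0109 without single libraries. The replicate number as a block gave 23 higher and 74 lower, 96 of the 97 shared with the calls without it. Same-numbered libraries did not deviate together (correlations 0.00528, 0.0133 and 0.003), so no effect shared by number was seen. The labels do not say whether the numbers pair libraries.

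After the correction for length and GC content the log2 fold change turned sign for CCDC144NL-AS1 (-0.0435), PROX1-AS1 (-0.13), OTUD6B-AS1 (-0.12), GATA2-AS1 (0.20), HAND2 (0.12), GATA3 (0.0417), NNT (-0.0560), FGF14 (-0.15), RARA (0.0157), KMT2E (-0.0381), SUCLG2 (-0.0723) and COX10 (0.12). GATA2-AS1 also turned on FPKM (0.0087 and 0.0074 at pseudocounts of 0.1 and 1, 0.0087 without a filter). COX10 turned with DESeq2 (0.0041), without a filter on counts (0.0154) and on FPKM (0.07996, 0.0514 and 0.07996), TBX2-AS1 with DESeq2 size factors (-0.0007003) and at 1 CPM (-0.0108), and URB1 at 1 CPM (-0.0047). TBX2-AS1 gained a call after the correction for length and GC content, at 0.42. Without single libraries the range was -0.0942 to 0.0613 for TBX2-AS1, -0.21 to 0.0295 for DLX6-AS1, -0.0159 to 0.463 for SUCLG2-AS1, -0.0376 to 0.0902 for SUCLG2, -0.0715 to 0.0523 for COX10 and -0.0042 to 0.0255 for URB1. Over 1302 alternatives of named genes, 1182 kept direction and side of the threshold, 57 lost the call, 29 gained it and 34 turned. With 3 libraries a group, antisense RNAs with few reads limit what could be called.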

Other observations

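The larger classes of other lncRNAs, grouped by symbol alone, held more lower than higher calls. Of 102 divergent transcripts (symbols ending in -DT, which start opposite a named gene), 4 rose and 32 fell (median log2 fold change -0.21). Of 158 genes with a LINC symbol 18 rose and 42 fell (median -0.14), and of 1037 lncRNAs of no such class 106 rose and 238 fell (median -0.13), beside 24 and 77 of the 274 antisense RNAs. The small classes did not: of 6 with -AS and no digit 1 rose and 1 fell (median 0.17), of 6 with -IT 1 rose and 1 fell (median -0.099), and of 2 with -OT 1 rose (median 0.25). Over all genes tested 28.0% rose and 28.2% fell. No test of a difference between these classes was made.

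Genes of nuclear RNA decay and early termination, which act on many antisense and divergent RNAs, moved in both directions. Over all genes tested 28.0% rose and 28.2% fell, and over those with 1000 reads or more 36.0% and 33.1%. Among 21 genes of the nuclear exosome and its NEXT and PAXT adaptors, 6 rose and 9 fell. Of the 10 exosome genes named EXOSC, 8 fell and none rose, with edgeR adjusted p = 6.21e-10 for EXOSC5, which stood at 13.4, 11.9 and 12.6 CPM in the SMN1-labelled libraries and 21.3, 21.9 and 20.3 CPM in the control libraries (log2 fold change -0.75). EXOSC4 and EXOSC9 fell by 0.48 and 0.37 (edgeR adjusted p = 6.03e-09 and 2.40e-08). The exosome helicase MTREX and the nuclease DIS3, named after their values were seen, rose by 0.31 and 0.37 (edgeR adjusted p = 6.70e-05 and 2.51e-05). Among 22 genes of the Integrator complex and early termination, 11 rose and 2 fell. INTS11, the catalytic subunit of Integrator, fell by 0.49 to 48.7, 41.9 and 44.9 CPM in the SMN1-labelled libraries, against 64.8, 63.2 and 61.4 CPM in the control libraries (edgeR adjusted p = 6.48e-09), while the cap-binding subunit NCBP1 and the termination factor PCF11 rose by 0.42 and 0.38 (edgeR adjusted p = 2.33e-07 and 5.56e-07). The part of these genes in the levels of the antisense RNAs was not tested.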
